A study of Homo sapiens with 12 samples.

Results

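The protein components of the cytosolic ribosome were followed at the RNA level in MDA-MB-231 cells, an established triple-negative breast cancer line. The genes were taken by symbol: RPL or RPS, a number and at most one final A, X or L, together with RPLP0, RPLP1, RPLP2 and RPSA. This gave 80 of the 27146 genes in the comparison tables. Of these, 77 are canonical subunits (31 of the small subunit, 43 of the large subunit and 3 of the P stalk) and 3 are paralogs: RPL3L, RPL39L and RPS27L. All 80 were present in the tables for SAHA and compound 1, and 79 in the table for a6. RPL3L was the gene without an a6 value, and a further paralog, RPL10L, was found in none of the tables.

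Cells received DMSO (Ctrl), SAHA, compound 1 or a6, the compounds at 2.5 µM, for 48 h, and total RNA of 3 libraries per group was sequenced. SAHA (vorinostat) inhibits histone deacetylases (HDACs), the enzymes that remove acetyl groups from histones. By the series text, SAHA and 1 each hit a single target, and a6 is a dual compound for HDACs and G-quadruplexes (G4s), folded structures of guanine-rich nucleic acid. The libraries are labelled as biological replicates of 1 line, with nothing said of separate cultures, so p-values measure the spread between these libraries, which may be technical.

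Ribosomal proteins surround and stabilise the ribosomal RNA: the small subunit decodes the messenger RNA, the large subunit joins amino acids, and the P stalk recruits the translation factors that act on each cycle. Most of their messenger RNAs begin with a 5′ terminal oligopyrimidine (TOP) tract, a cytosine at the cap followed by a run of pyrimidines, through which the mTOR pathway and the LARP1 protein control their translation. That control acts on translation and on the stability of the messages, and RNA sequencing measures neither directly, only the amount of RNA.

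The starts of 8 genes are shown because the shared TOP tract, and its absence from a paralog, can be read in them. Each line gives 30 bases before and 15 bases from the transcription start, from RefSeq on GRCh38.p14, with the pyrimidine tract that begins at the start in capitals.
RPLP0: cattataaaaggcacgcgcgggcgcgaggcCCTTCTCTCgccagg
RPLP1: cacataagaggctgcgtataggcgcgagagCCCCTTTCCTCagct
RPLP2: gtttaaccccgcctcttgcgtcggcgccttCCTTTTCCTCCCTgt
RPSA: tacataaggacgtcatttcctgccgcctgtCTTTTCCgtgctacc
RPS6: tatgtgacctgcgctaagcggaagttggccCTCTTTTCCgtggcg
RPL39: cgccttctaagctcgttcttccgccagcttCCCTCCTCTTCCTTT
RPS27: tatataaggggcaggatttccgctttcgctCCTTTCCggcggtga
RPS27L: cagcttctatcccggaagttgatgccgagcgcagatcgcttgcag
The windows are chr12:120201097-120201141 on the minus strand for RPLP0, chr15:69452788-69452832 on the plus strand for RPLP1, and chr11:809937-809981 on the plus strand for RPLP2. RPSA is at chr3:39406690-39406734 on the plus strand, RPS6 at chr9:19380222-19380266 on the minus strand and RPL39 at chrX:119791616-119791660 on the minus strand. RPS27 is at chr1:153990732-153990776 on the plus strand and its paralog RPS27L at chr15:63157463-63157507 on the minus strand. All 8 windows span a promoter and the first bases of the first exon. The tract of RPL39 was the longest shown, 19 pyrimidines of which 15 are printed, and the RPS27L start held none. RPS27L was the only paralog with a start sequence, and some canonical genes not shown, such as RPL3, had no such tract either.

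RefSeq start sequences were matched for 63 of the 80 genes, with more than 1 start for 10 of them. A TOP start was defined as C followed by at least 4 pyrimidines at any listed start, on the strand that reads as the RNA. It was found in 46 of 63 genes (73.0%), against 5.14% of all 27305 genes with a start sequence. The 46 were all canonical, out of 62 canonical genes matched. A G4 motif (4 runs of at least 3 G with loops of 1 to 7 bases, on either strand, in a window of 300 bases) was found in 7 of 63 (11.1%), against 27.9% of all genes. The 7 were RPL18, RPLP2, RPS16, RPS19, RPS26, RPS27L and RPS28, and 4 of them also had a TOP start. The motif CTTTCC, searched on both strands of the same window, was found in 30 of 63 (47.6%) against 30.2% of all genes. It can lie inside a TOP tract, as it does at the RPS27 start, and 22 genes had both. These matches describe the letters of the windows only.

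Of the markers listed for the line, VIM, CD44, CAV1 and AXL had mean normalized counts from 3479 to 20436 across the authors' deposited tables, while ESR1 (0.489) and PGR (0.317) were listed for compound 1 only. ERBB2, listed as a low or absent marker, was measured at 1715 to 2088 and GATA3 at 69.5 to 81.8.

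Ribosomal protein genes were among the most abundant messages measured. Their median mean normalized count was 5931 in the compound 1 table, above 98.9% of the genes in it, and together they made up 4.73% of all normalized counts in Ctrl. RPLP0, the scaffold of the P stalk, had the highest count: its Ctrl mean, computed from the authors' deposited tables, was 27846, 27781 and 27202 in the SAHA, compound 1 and a6 comparisons, which share the Ctrl libraries. RPS2, at the messenger RNA entry side of the small subunit, followed at 24287 and RPL7A, of the large subunit, at 21686 in the compound 1 comparison. Per kilobase of transcript, a level that depends on the length chosen, the Ctrl order began with RPL35 (24810), RPS2 (24657), RPL7A (24339), RPLP0 (22101) and RPL8 (20059). The median of the canonical genes was 8161. Neighbours in this order cannot be separated, since a spread over libraries was not used here. The length came from the GENCODE 29 transcript of median length, a rule adopted after the longest transcript had given implausible lengths. Some lengths stayed long under this rule, such as 7686 nt for RPL37, whose coding length is 291 nt. With the longest transcript the 5 leading genes kept ranks 1 to 5, but RPS3 moved from rank 6 to 32 and RPL15 from 8 to 45. With coding length the 5 ranked 3, 5, 6, 4 and 7. RPL41 then moved from rank 25 to 1 and RPL37 from 72 to 32.

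A small set of canonical genes was listed at levels far below the rest. RPL36A, RPS10 and RPL17 had mean counts of 20.6, 35.1 and 58.2 in the authors' deposited table for compound 1, and RPL26, RPS15A and RPL22 had 281, 558 and 713. Another 70 canonical genes each had at least 1000. In GENCODE 29 each of these 6 low genes overlaps another protein-coding gene on the same strand, in part a readthrough gene such as RPS10-NUDT3, RPL17-C18orf32 and RPL36A-HNRNPH2. Of the coding bases of 1 transcript, 92.1% to 100% were shared for the 3 lowest, 54.6% to 71.0% for the next 3 and 0 to 1.31% for the 70 abundant ones. These shares count overlaps on the same strand only. With both strands counted, RPS23 (mean count 6073) reached 54.1% and RPL30 (mean count 4788) 51.6%, close to the 54.6% of RPS15A. The gap between the classes therefore holds for the same strand, and the strand setting of the counting was not known here. The coding-base measure and the count classes were chosen after the values were seen. The measure used first, all exon bases of all transcripts, gave 8.40% to 39.4%, 3.26% to 14.3% and 0 to 17.6%, ranges that overlap between the classes. None of the genes that overlap these 6 was in any of the 3 tables. The authors' annotation and counting rule were not known here, so the part of shared exons in these low levels was not tested, and the values of the 6 genes are uncertain. The 3 paralogs, whose coding bases overlapped no other gene, were also low: RPL39L at 674, RPS27L at 365 and RPL3L at 4.68.

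**Figure D1:**
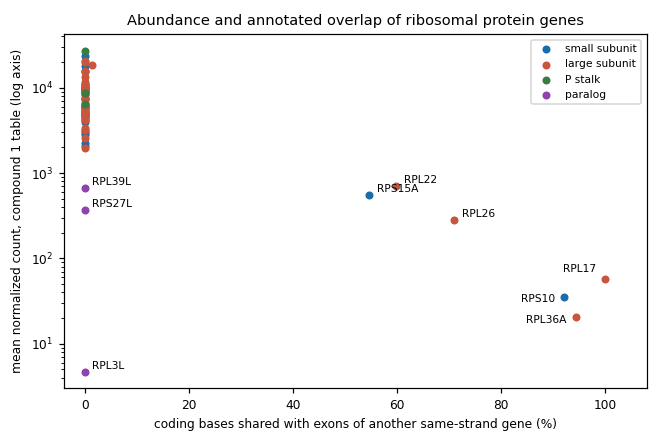
Mean normalized count in the compound 1 comparison (vertical, log axis) against the percent of coding bases shared with exons of another gene on the same strand (horizontal), 1 point per gene drawn. The 6 labelled canonical genes with 54.6% or more shared lie below 1000, and the 70 canonical genes at 0 to 1.31% lie above it. With both strands counted, not drawn, RPS23 and RPL30 of the abundant genes reach 54.1% and 51.6%. The overlap measure was chosen after the values were seen.

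SAHA was followed by no called change in any of the 80 genes. By the authors' deposited table, 0 rose and 0 fell at an adjusted p below 0.05, whereas 7.55% of all 18534 genes were called (4.53% higher and 3.02% lower). At an unadjusted p under 0.05 there were 2, RPL39L and RPL3L, against 18.4% of all genes. The 95% interval lay within a 2-fold change in either direction for 74 of 80 genes (36.7% of all genes), and within 1.5-fold for 5. The 6 genes with wider intervals were RPL36, RPL36A, RPL39L, RPL3L, RPS10 and RPS9. Abundant genes have narrow intervals. Of genes whose mean count reached 1000, 68 of 70 members and 70.8% of the others were within 2-fold. At that abundance 5 of 70 members and 263 of 2858 other genes lay within 1.5-fold.

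The P stalk genes were each slightly lower with SAHA, within error. RPLP0 went from a computed mean of 27846 in Ctrl to 24528, a log2 fold change of -0.18 (SE 0.30) in the authors' deposited table. RPLP1, its acidic partner, stood at -0.20 (SE 0.31) and RPLP2 at -0.13 (SE 0.30) there. All 3 changes were smaller than their standard errors.

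Among small-subunit genes, 28 of 31 log2 fold changes were below 0 with SAHA, with a median of -0.13. The lowest named were RPS9 at -0.36 (SE 0.33) and RPS27 at -0.31 (SE 0.33) in the authors' deposited table. RPSA, a small-subunit protein also known as the laminin receptor precursor, went from 18109 to 15107 (-0.26, SE 0.31). RPS6, the substrate of the S6 kinases, went from 7322 to 6757 (-0.12, SE 0.26). RPS15A was the highest at 0.16 (SE 0.32) in the authors' deposited table, and it is one of the genes with shared coding bases. The 95% interval of each of these genes included 0.

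For the large subunit, 32 of 43 log2 fold changes were below 0 with SAHA, with a median of -0.099. RPL36 stood at -0.39 (SE 0.33) and RPL10, which helps form the site where tRNAs bind and is needed for late subunit maturation, at -0.37 (SE 0.31) in the authors' deposited table. RPL5, which with RPL11 and the 5S RNA can bind MDM2, was at 0.22 (SE 0.26). The highest were RPL26 at 0.26 (SE 0.30) and RPL22 at 0.24 (SE 0.26), both with shared coding bases. The largest of these, RPL36, had an adjusted p of 0.619 (authors' deposited table).

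The paralogs gave the widest values. RPL39L, a paralog of the exit-tunnel protein RPL39 that is best known from testis, went from a computed 687 to 422, a log2 fold change of -0.70 (SE 0.33, 95% interval -1.35 to -0.052, adjusted p 0.219) in the authors' deposited table. RPL39 itself was at -0.22 (SE 0.29). RPL3L, the striated-muscle paralog of RPL3, went from 4.63 to 14.5, a log2 fold change of 1.64 (SE 0.81, 95% interval 0.061 to 3.23, adjusted p 0.244) in the authors' deposited table. RPL3 was at -0.14 (SE 0.30). RPS27L, known as a p53-responsive paralog, was at 0.16 (SE 0.31) beside RPS27 at -0.31. Of the 80 genes only RPL3L is in the authors' deposited lists of changed genes, among the 1327 raised by SAHA. It is also the only one in their lists of G4-related genes, with 2 G4s. Its adjusted p of 0.244 is above the threshold for a call here, so the lists of changed genes follow another rule. The counts of RPL3L are close to the lowest in the SAHA comparison (2.44).

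Compound 1 was followed by no change called at an adjusted p below 0.05 in these genes or in any other. The authors' lists of changed genes for compound 1 hold 23 raised and 20 lowered genes, of which 0 are members. Those lists therefore follow a rule other than this threshold. By the authors' deposited table, 0 of 80 rose and 0 fell, and 0% of all 27126 genes were called; at an unadjusted p under 0.05 there were 0 of 80, against 0.199% of all genes. The interval lay within 2-fold for 77 of 80 (37.7% of all genes, and 96.4% of other genes whose mean count reached 1000) and within 1.5-fold for 15. The exceptions at 2-fold were RPL36A, RPL3L and RPS10. Of genes whose mean count reached 1000, 70 of 70 members lay within 2-fold. Within 1.5-fold lay 14 of these 70 members and 1417 of 2941 others. Their median standard errors were 0.30 and 0.25, so the members were measured less tightly.

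With compound 1 the P stalk gene RPLP0 went from 27781 to 26888 (-0.047, SE 0.32), RPLP1 was at -0.076 (SE 0.32) and RPLP2 at -0.12 (SE 0.30) in the authors' deposited table. Of the small subunit, RPS10 had the lowest value of all members, -0.59 (95% interval -1.55 to 0.37), at a mean count of 35.1. RPS21 stood at -0.25 (SE 0.34), from 3370 to 2844. RPS6 was at 0.0059 (SE 0.25) and RPSA at 0.014 (SE 0.34) in the authors' deposited table. Large-subunit values ran from RPL28 at -0.21 (SE 0.31), RPL37A at -0.21 (SE 0.30), RPL39 at -0.18 (SE 0.32) and RPL38 at -0.17 (SE 0.29), the last known for translating a subset of Hox messages, to RPL22 and RPL10A at 0.046 and 0.047, RPL14 at 0.057 and RPL17 at 0.10. The paralogs stood at -0.048 (RPL39L), -0.086 (RPS27L) and 0.031 (RPL3L) in the authors' deposited table. The 95% interval of each of these genes included 0.

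The compound a6 was also followed by no called change in ribosomal protein genes. By the authors' deposited table, 0 of 79 rose and 0 fell, against 0.583% of all 15255 genes called (0.243% higher and 0.341% lower). With so small a share called over all genes, the 0 says nothing particular to the members. At an unadjusted p under 0.05 there was 1, RPL17, against 7.41% of all genes. The authors' lists of changed genes for a6 hold 150 raised and 248 lowered genes, of which 0 are members. The interval lay within 2-fold for 76 of 79 (62.2% of all genes, and 94.5% of other genes whose mean count reached 1000) and within 1.5-fold for 51. RPL17, RPL36A and RPS10 were the exceptions at 2-fold, all 3 of them genes with shared coding bases. Of genes whose mean count reached 1000, 70 of 70 members lay within 2-fold. Within 1.5-fold lay 49 of these 70 members and 1172 of 2888 others.

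With a6, RPLP0 went from 27202 to 24523 (-0.15, SE 0.24), RPLP1 stood at -0.16 (SE 0.24) and RPLP2 at 0.068 (SE 0.25) in the authors' deposited table. For the small subunit, RPS9 was at -0.18 (SE 0.26) and RPS27A, which is made as a fusion with ubiquitin, at -0.19 (SE 0.23). RPS25, which takes part in initiation at viral internal ribosome entry sites, was at 0.13 (SE 0.22) and RPS28 at 0.12 (SE 0.25) in the authors' deposited table. RPS6 was at 0.061 (SE 0.22) and RPSA at -0.021 (SE 0.25). These small-subunit genes all lay within 1 standard error of 0.

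RPL39, of the exit tunnel, was the lowest large-subunit gene with a6, going from 2027 to 1586 (-0.35, SE 0.25, adjusted p 0.869 in the authors' deposited table). RPL3, near the peptidyl transferase centre, was at -0.26 (SE 0.25) and RPL12, at the base of the stalk, at -0.20 (SE 0.25), while RPL27 was at 0.13 (SE 0.24). RPL17 went from a computed 55.0 to 89.3, a log2 fold change of 0.70 (SE 0.35, 95% interval 0.017 to 1.38, adjusted p 0.658) in the authors' deposited table. RPS10 was at -0.69 (SE 0.44), from 41.2 to 25.5, beside -0.59 with compound 1 and -0.23 with SAHA. With a6 the values of these last 2 low-count genes lay on both sides of 0, and both share most of their coding bases with another gene. RPL39L was at -0.13 (SE 0.29) and RPS27L at -0.025 (SE 0.27) in the authors' deposited table.

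**Figure D2:**
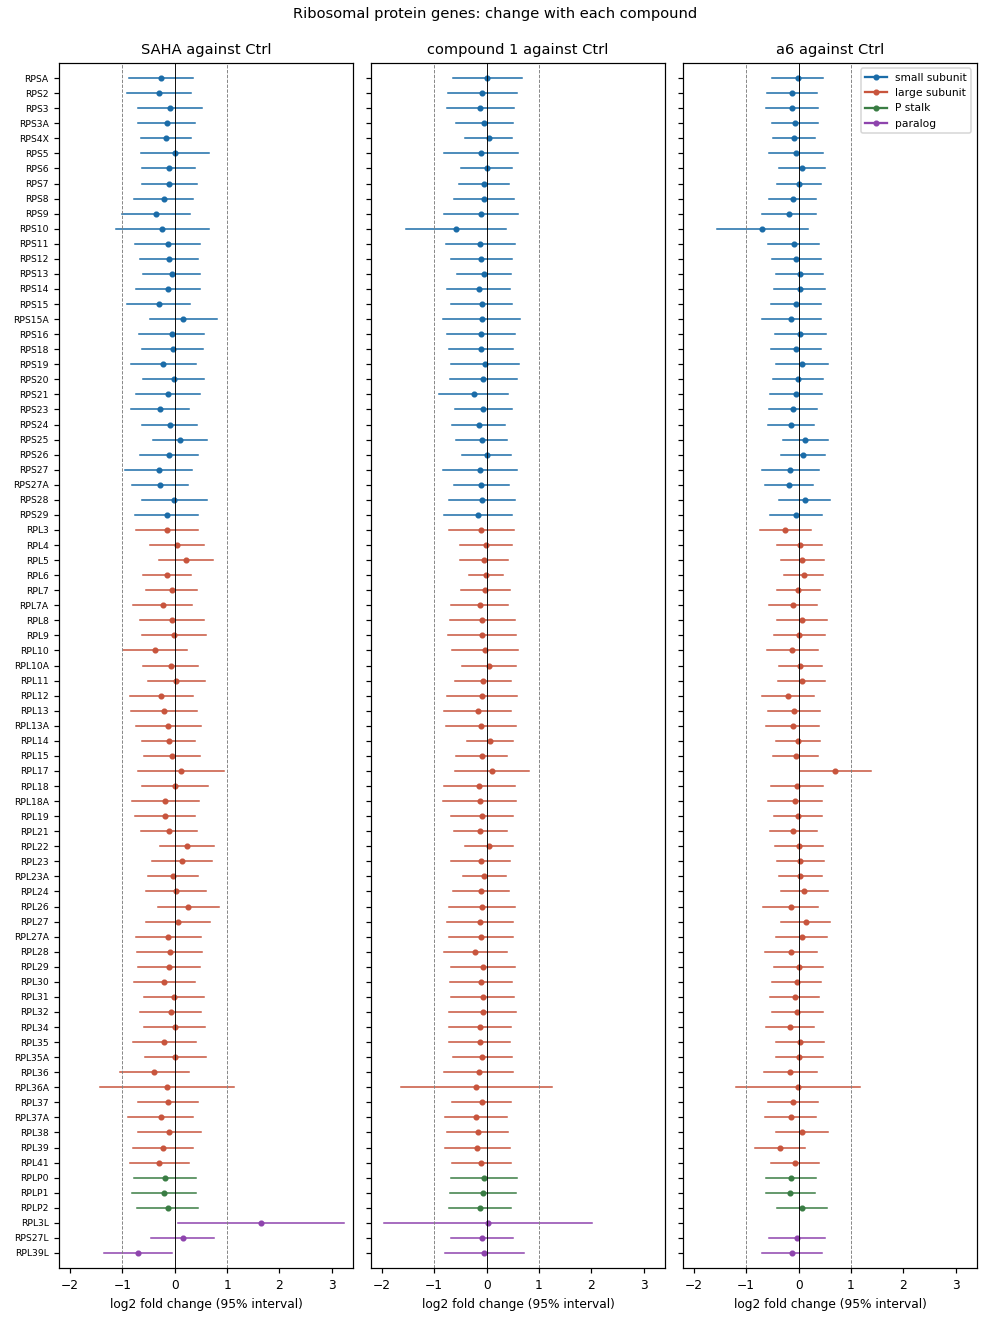
Log2 fold change against Ctrl (horizontal) with 95% intervals for the ribosomal protein genes drawn (rows, coloured by subunit) with SAHA, compound 1 and a6, from the authors' deposited tables; dashed lines mark 2-fold. Intervals that cross a dashed line belong to 6 genes with SAHA, 3 with compound 1 and 3 with a6, and the widest belong to RPL36A, RPS10 and RPL3L.

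As a group the genes sat slightly below 0, and the size of that shift depended on how abundance was treated. The median log2 fold change in the authors' deposited tables was -0.11 with SAHA, -0.096 with compound 1 and -0.044 with a6, beside -0.0074, 0.010 and -0.032 over all genes. Values were below 0 for 64 of 80, 71 of 80 and 50 of 79 genes, against 50.7%, 48.6% and 54.1% of all genes. Other genes whose mean count reached 1000 had medians of -0.14, -0.033 and -0.010. With a smooth trend on abundance removed, the medians became 0.026, -0.026 and 0.010, so the sign turned for SAHA and a6, and 32, 57 and 35 genes were below 0. Centred on the median of all genes they were -0.11, -0.11 and -0.012. The 3 comparisons share the Ctrl libraries, so like signs in them are not independent.

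The abundant genes also lay close to one another. Over the 70 whose mean count reached 1000, the SD across genes of the log2 fold change was 0.12 with SAHA, 0.059 with compound 1 and 0.098 with a6. The median standard error of a single gene was 0.30, 0.30 and 0.24. Other genes of that abundance had SDs of 0.44, 0.13 and 0.26 with median standard errors of 0.28, 0.25 and 0.23. Their share of all normalized counts, over all members measured, went from 4.73% to 4.64% with SAHA, from 4.73% to 4.56% with compound 1 and from 4.74% to 4.72% with a6. Genes with a TOP start had medians of -0.13, -0.11 and -0.071, and the 17 matched genes without one -0.077, -0.083 and 0.015; the difference between the lists was not tested.

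**Figure D3:**
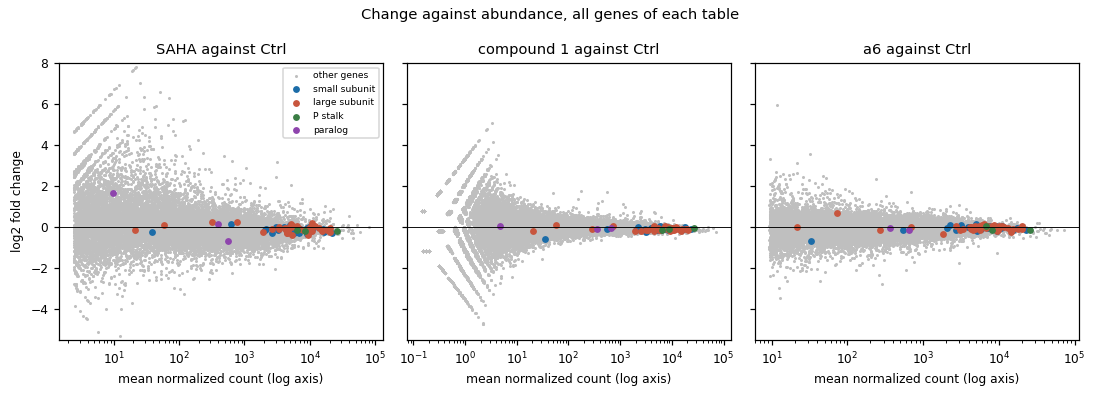
Log2 fold change (vertical) against mean normalized count (horizontal, log axis) for all genes of each authors' deposited table (grey) with ribosomal protein genes coloured by subunit. The 70 genes above 1000 form a narrow band near 0, and RPL3L with SAHA, at 1.64, stands apart at a mean count of 9.55.

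The 3 compounds were compared with one another at the same dose and time, over 3 pairs. The difference of deposited log2 fold changes was tested as a z statistic, two-sided, with p-values adjusted by Benjamini-Hochberg over all genes in both tables of a pair. For SAHA minus compound 1, 0 of 80 genes were called (1.06% of all genes), for a6 minus compound 1 0 of 79 (0.0328%) and for a6 minus SAHA 0 of 79 (0.256%). With shares this small over all genes, these 0 counts say nothing particular to the members. The unadjusted p was under 0.05 for 0 genes in each pair, against 7.26%, 1.46% and 5.56% of all genes. Medians of the difference were -0.0064, 0.055 and 0.081. The interval of the difference lay within 2-fold for 55 of 80, 72 of 79 and 66 of 79 genes, against 17.7%, 36.9% and 25.4% of all genes; for the remaining members a 2-fold difference between compounds is not excluded by the interval.

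RPLP0 differed by -0.14 (SE 0.44) between SAHA and compound 1, by -0.10 (SE 0.40) between a6 and compound 1, and by 0.033 (SE 0.39) between a6 and SAHA. RPL39L was lower with SAHA than with compound 1 by a difference of -0.65 (SE 0.51, 95% interval -1.65 to 0.34, adjusted p 0.988), and a6 minus SAHA was 0.57 (SE 0.44, -0.29 to 1.44). RPL17 was 0.60 (SE 0.50, -0.38 to 1.57) for a6 minus compound 1. RPL3L was 1.61 (SE 1.30, -0.93 to 4.15) for SAHA minus compound 1. The 95% interval of each of these differences included 0, which does not show that the compounds act alike on these genes.

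**Figure D4:**
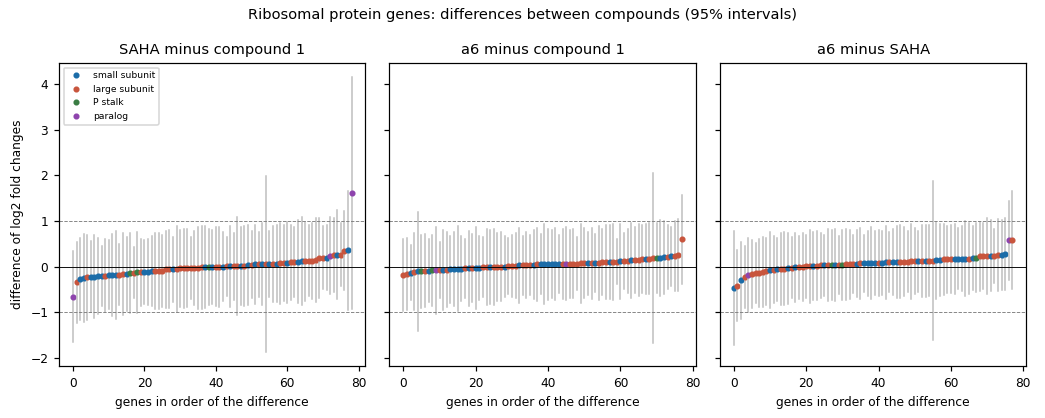
Difference of log2 fold changes between compounds (vertical) with 95% intervals for the ribosomal protein genes, in order of the difference (horizontal), in 3 pairs; dashed lines mark 2-fold. Most points lie near 0. The widest interval belongs to RPL3L, at 1.61, for SAHA minus compound 1. It belongs to RPL36A for a6 minus compound 1, at 0.18, and for a6 minus SAHA, at 0.13. Both are low-count genes.

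Subunits whose symbols fall outside the rule gave no calls either. FAU, which encodes the small-subunit protein eS30, and RACK1, a scaffold on the small subunit, had 0 calls in the 3 authors' deposited tables and 0 at an unadjusted p under 0.05. RACK1 was at -0.30 (SE 0.28), -0.12 (SE 0.28) and -0.20 (SE 0.23) with SAHA, compound 1 and a6. Of the paralogs RPL7L1, RPL22L1, RPL26L1 and RPL36AL, 0 were called in the authors' deposited tables by DESeq2. RPL26L1 had the only unadjusted p under 0.05, with a6, where it went from 497 to 681 (0.46, SE 0.22, adjusted p 0.638). Over all genes 7.55%, 0% and 0.583% were called with SAHA, compound 1 and a6, and 18.4%, 0.199% and 7.41% had an unadjusted p under 0.05. With so few genes, these counts say nothing particular to them.

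A further list held translation factors and some genes of other kinds, chosen for TOP tracts in their messages. A TOP start was found in 11 of the 12 with a start sequence, and the rest were not checked. The list gave 0 calls of 18 genes with each compound in the authors' deposited tables, with 1, 0 and 1 at an unadjusted p under 0.05. Over all genes 7.55%, 0% and 0.583% were called and 18.4%, 0.199% and 7.41% had an unadjusted p under 0.05, so with 18 genes these counts say nothing particular to the list. EEF1B2, an exchange factor of elongation factor 1, stood at -0.58 (SE 0.28, adjusted p 0.227) with SAHA, and EIF3E, a subunit of initiation factor 3, at -0.47 (SE 0.24, adjusted p 0.666) with a6. EEF1G was in no table, and its coding bases are fully shared (100%) with another gene in GENCODE 29. Among 14 non-coding hosts of small nucleolar RNAs, 1 fell with SAHA (of all genes, 7.55% were called and 3.02% were called lower) and 0 were called with compound 1 or a6, where 0 and 2 had an unadjusted p under 0.05. The share called with SAHA is near that of all genes. The host that fell was SNHG3, which went from 1003 to 521 (-0.94, SE 0.31, adjusted p 0.0318 in the authors' deposited table). Ribosomal protein genes host such RNAs too: 60 lie inside 28 of the 80 genes in GENCODE 29, up to 5 in a gene.

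Of 12 genes of the mTOR pathway and LARP1 axis that acts on TOP messages, 1 was called with SAHA, and it fell. Over all genes 7.55% were called and 3.02% were called lower, so 1 of 12 says nothing particular to the list. With compound 1 and a6, 0 were called, and 0 and 1 had an unadjusted p under 0.05. MLST8, a subunit of both mTOR complexes, went from 1154 to 495 (-1.22, SE 0.32, adjusted p 0.0040 in the authors' deposited table). With a6 it went from 1127 to 675 (-0.74, SE 0.26, adjusted p 0.232). TSC2, an inhibitor of the pathway, stood at -0.76 (SE 0.27, adjusted p 0.0641) with SAHA in the authors' deposited table. Whether these values bear on ribosomal protein messages was not tested.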

How the data were processed

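RNA was sequenced from 4 groups of 3 libraries. The authors used cutadapt, DESeq2 and GRCh38 (hg38), per the submitters' processing notes, with aligner, counter, versions and strand setting not given in the sources used here. Per the file headers, the authors' tables give for each gene a mean normalized count (signal), the log2 fold change and its error, the Wald statistic as a score, and the p-value before and after adjustment, and the deposited G4-related lists give a G4 number (other). There are 0 columns of per-library values, so depth per library is unknown and the count test planned for per-library counts was not run. The deposited adjusted p-value equals a Benjamini-Hochberg adjustment over each table.

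A call is an adjusted p under 0.05 from the authors' DESeq2 Wald test, as deposited. Group means were computed from the mean count and fold change for equal groups, and 95% intervals as the log2 fold change with a normal multiplier of 1.96 standard errors. For differences between compounds, squared standard errors were summed; the shared Ctrl makes this conservative. Scripts used Python 3.11.15, pandas 2.3.3, SciPy 1.17.1, statsmodels 0.14.6 and Matplotlib 3.10.9, and were checked on simulated data. Positions and lengths came from GENCODE 29 and starts from RefSeq.

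The genes and lists were chosen with earlier results of these data known. Named were called genes, the 5 highest and 5 lowest per comparison at a mean count of at least 50, the 3 highest and 3 lowest mean counts, the P stalk, RPSA, RPS6, the paralogs with their parents, and in other lists called genes and the extremes. RPL35, RPL8, RPS3, RPL15, RPL30, RPL37, RPL41 and RPS23, the genes with a G4 motif and the overlapping genes were named after their values were seen. The overlap measure, the count classes, the transcript-length rule and the final symbol rule for mitochondrial ribosomal proteins were also set after first values were seen, and the first and final versions are both given, as are all 3 motifs searched. Alternatives changed thresholds, filters, centring, abundance trend and error correlation. Values of some single genes are not reported here, and counts over lists include them.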

Additional observations from a re-analysis of the deposited data

How the results depend on the processing

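With no values per library, leaving out each replicate and the replicate block were not run. No paired analysis was possible because the deposited tables hold comparisons and no values per library. Counts of called ribosomal protein genes were 0 in all 3 comparisons and 3 differences under each alternative run, except that an unadjusted p under 0.05 gave 2 with SAHA and 1 with a6. Removing the abundance trend turned the sign of the median for SAHA (0.026) and a6 (0.010). The cause was not tested. Choices added after the values were seen moved other results: with all exon bases the highest shared percent was 39.4, 14.3 and 17.6 in the 3 count classes, and the longest transcript moved RPS3 to rank 32 and RPL15 to rank 45. The wider symbol rule for mitochondrial ribosomal proteins, which takes antisense and pseudogene symbols, gave 3 calls of 86 genes with SAHA in place of 2 of 77. Low counts limit RPL3L and the genes with shared exons most.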

Other observations

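Mitochondrial ribosomal proteins, the separate set that serves the mitochondrial ribosome, gave 2 calls of 77 genes with SAHA and 0 with compound 1 or a6 by DESeq2, with 7, 0 and 0 at an unadjusted p under 0.05. Over all genes 7.55%, 0% and 0.583% were called, and 18.4%, 0.199% and 7.41% had an unadjusted p under 0.05. MRPS9 rose with SAHA from 326 to 613 (log2 fold change 0.91, SE 0.27, adjusted p 0.0156 in the authors' deposited table). MRPS24 fell from 21.4 to 2.72 (-2.98, SE 0.82, adjusted p 0.0069), and 92.2% of its coding bases are shared with the readthrough gene URGCP-MRPS24.

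Ribosomal protein pseudogenes, copies that share sequence with their parent genes, gave 2 higher calls of 85 with SAHA, 0 of 313 with compound 1 (1 at an unadjusted p under 0.05) and 1 higher call of 51 with a6 in the authors' deposited tables, where 4.53%, 0% and 0.243% of all genes were called higher. RPL13AP20 rose with SAHA from 151 to 345 (1.20, SE 0.29, adjusted p 0.0015) and with a6 from 147 to 323 (1.14, SE 0.30, adjusted p 0.0317) in the authors' deposited tables. RPLP0P2 rose with SAHA at a mean count of 8.34 (3.91, SE 1.16, adjusted p 0.0148). Reads of pseudogenes and parents may be split in counting, so these values are uncertain, and the part of such reads was not tested. Pseudogenes together held 0.034% of normalized counts in Ctrl and 0.038% with SAHA.

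Chaperones and importers of ribosomal proteins gave 0 calls of 12 genes and ribosome quality control factors 0 of 10 with each compound by DESeq2. At an unadjusted p under 0.05 there were 0 of the chaperones in each comparison, and 2, 0 and 2 of the quality control factors with SAHA, compound 1 and a6. With lists this short, the all-gene shares given above (18.4% unadjusted with SAHA) leave nothing particular to them in these counts. TCF25, of the quality control complex, stood at -0.73 (SE 0.28, adjusted p 0.0953) with SAHA and -0.59 (SE 0.23, adjusted p 0.373) with a6 in the authors' deposited tables. HBS1L, a ribosome rescue factor, stood at 0.70 (SE 0.30, adjusted p 0.145) with SAHA.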
